A study of Mus musculus with 6 samples.

Results

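RNA from hearts given doxorubicin alone (Dox) was compared with RNA from vehicle hearts (Control), 2 of the 6 libraries of the series, each pooled from the hearts of 5 mice. All 6 groups were female BALB/c nude mice (CAnN.Cg-Foxn1nu/Crl), which lack a thymus, aged 6 weeks and carrying subcutaneous MDA-MB-231 human breast tumours. From day 7 the Dox mice received 2 mg/kg of doxorubicin in saline every other day, to a cumulative 22 mg/kg over 3 weeks, and the Control mice received vehicle. The other 4 groups received ginsenoside Rh2, a saponin of ginseng, at 20 or 30 mg/kg without Dox (labelled Rh2-20 mg/kg and Rh2-30 mg/kg, here Rh2-20 and Rh2-30) or together with the same course (Rh2-20 + Dox and Rh2-30 + Dox). The genes compared were those with a mean of at least 10 read counts over the 6 libraries, 18328 of the 45777 listed. Each value is the log2 ratio of counts after TMM scaling (trimmed mean of M values, which sets library sizes so that most genes do not differ) with 0.5 added to each count.

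There was 1 library a side, so no difference between Dox and Control has a replicate check and none was tested. Each ratio is given with a 95% interval from counting error alone (exact, conditional on the sum of the pair) and, for the genes that lead a group, with a wider one that adds the dispersion over all 6 libraries. That dispersion alone spans 0.67 on the log2 scale to either side, or 1.18 when estimated by the Cox-Reid method in place of the robust deviance method. As a second measure of spread, each Dox level was placed against the range of the 3 libraries that held no Dox. Rh2-20 + Dox against Rh2-20, and Rh2-30 + Dox against Rh2-30, differ by Dox too and share no library with Dox and Control, so their ratios stand beside those of the members. A gene is counted as higher or lower where the ratio reached 2-fold.

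Doxorubicin is an anthracycline that lodges in DNA and traps topoisomerase II on broken strands, and it is known for a cumulative toxicity to heart muscle. In cultured cells the breaks activate p53, hold the cell cycle and can start interferon signalling. Topoisomerase II alpha (Top2a) is made by dividing cells and topoisomerase II beta (Top2b) also by cells that no longer divide, such as cardiomyocytes. A heart library also holds RNA of endothelial cells, fibroblasts, smooth muscle, macrophages and blood, and fewer cells of a type cannot be told apart from less RNA per cell.

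The libraries summed to 86164411 to 90621002 counts, and titin (Ttn) led each of them. Against Control, 997 genes (5.44% of those tested) were at least 2-fold higher in Dox and 656 (3.58%) at least 2-fold lower, 9.02% in all. Among pools that held no Dox, Rh2-20 had 614 genes higher (3.35%) and 513 lower (2.8%) than Control, 6.15% in all, and Rh2-30 had 1555 (8.48%) and 299 (1.63%), 10.1% in all. The pairs with and without Dox at one dose of Rh2 had 6.96% (Rh2-20) and 14.5% (Rh2-30). Of the genes past 2-fold in Dox, 662 of the higher and 460 of the lower had fewer than 100 counts in both libraries, and 177 and 103 were listed at 0 in one of the pair. The share past 2-fold was 16.1% higher and 11.1% lower among genes with a mean of 10 to 99 counts, and 0.809% and 0.0578% among those with 10000 or more. With the authors' FPKM plus 1, 160 genes were higher and 36 lower, and with TPM plus 1, 291 and 112.

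Markers of other tissues differed between the pools and were read before any other group. Atrial genes were far apart: Myl7, the atrial myosin light chain, had 56 counts in Control, 1187 in Rh2-20, 52896 in Rh2-30, 9134 in Dox, 10613 in Rh2-20 + Dox and 19 in Rh2-30 + Dox. The Dox pool thus held 162-fold more Myl7 than Control and less than the Rh2-30 pool. Of the 13 atrial markers tested, 8 were higher in Dox and 0 lower, against 5.44% and 3.58% of all genes. Their median log2 ratio was 2.16, against -0.00 over all tested genes. None of the 13 left the range of the 3 libraries without Dox, while 27.1% of all genes lay above it and 30.4% below. The summed normalised count of the 13 was 9056 in Control, 11363 in Rh2-20, 178645 in Rh2-30, 43943 in Dox, 52605 in Rh2-20 + Dox and 13656 in Rh2-30 + Dox. The natriuretic peptide Nppa, which atrial muscle makes and strained ventricle also makes, went from 3607 counts in the vehicle pool to 16217 in Dox, with a log2 ratio of 2.16 (from 1.48 to 2.83 once the dispersion is added). It moved with Myl4 (128 and 4639 counts), Mybphl (14 and 994) and sarcolipin (Sln, 14 and 1828), all atrial genes. Bmp10, a growth factor of the right atrium, was listed at 0 in Control and had 217 counts in Dox, at least 71.7-fold higher, but 534 in Rh2-30 without Dox. The part of the atrial share in the ratio of Nppa was not tested, while Nppb, its ventricular relative, had 3661 counts in Control and 3017 in Dox.

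White fat and blood markers were also higher in Dox. Adiponectin (Adipoq) had 56 counts in Control, 330 in Rh2-20, 3716 in Rh2-30, 650 in Dox, 317 in Rh2-20 + Dox and 8 in Rh2-30 + Dox. Of 14 white fat markers tested, 9 were higher in Dox and 0 lower (median 2.30), against 5.44% and 3.58% of all genes. Among the 9 were the lipid droplet coat protein Plin1 (10 and 232 counts), adipsin (Cfd, 287 and 2097) and Pck1 (43 and 272). Only 1 of the 14 lay above the 3 libraries without Dox, against 27.1% of all genes. It was Plin4, which heart muscle makes too. The summed level of the list was 175871 in Dox and 161445 to 230149 in the libraries without Dox, carried by Plin4 and Fabp4, which differed little. Of 13 brown fat markers tested, 1 was higher in Dox and 1 lower, against 5.44% and 3.58% of all genes. The higher was Slc27a2 (0 and 10 counts) and the lower Cidea (627 and 308). Ucp1, another of the 13, was listed at 0 in Dox and in Control and had 6442 counts in Rh2-30.

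Red cell and platelet genes differed from the atrial and fat markers in their order over the libraries. Erythroid markers were higher for 11 of 17 and lower for 0 (5.44% and 3.58% of all genes), with a median of 1.39. Of the 17, 14 were above each library without Dox, against 27.1% of all tested genes. The beta globin Hbb-bs had 72575 counts in Control, 56977 in Rh2-20, 74682 in Rh2-30, 237261 in Dox, 131724 in Rh2-20 + Dox and 37010 in Rh2-30 + Dox. Dox held the most and Rh2-30 + Dox the least. Alas2, the erythroid enzyme that begins haem synthesis, had a log2 ratio of 2.00 (1.98 to 2.03 from counting error). Hba-a1 with Hba-a2, and Hbb-bs with Hbb-bt, are near-identical neighbours whose reads the counting may have split, and their sums gave 1.42 and 1.65. Summed over the 18 listed markers, the level was 966914 in Dox against 243755 to 335150 without Dox, and Klf1, a factor of nucleated red cell precursors, was listed at 0 in both Dox and Control.

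Platelet and megakaryocyte markers were higher for 15 of 17 and lower for 0 (5.44% and 3.58% of all genes), with a median of 2.74. Of the 17, 16 lay above each library without Dox, against 27.1% of all genes. Gp9, a subunit of the receptor for von Willebrand factor, had 46 counts in Control, 23 in Rh2-20, 65 in Rh2-30, 301 in Dox, 575 in Rh2-20 + Dox and 26 in Rh2-30 + Dox. The alpha chain of the fibrinogen receptor, Itga2b, had 496, 429, 1064, 3352, 5153 and 479 counts in the same order. Both were high in Dox and in Rh2-20 + Dox and low in the other 4 libraries. The median log2 ratio of the platelet list was 3.67 in Rh2-20 + Dox against Rh2-20 and -1.25 in Rh2-30 + Dox against Rh2-30. The erythroid list gave 0.83 and -1.93 in the same pairs, the atrial list 2.33 and -3.01, and the white fat list 0.07 and -5.41.

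**Figure D1:**
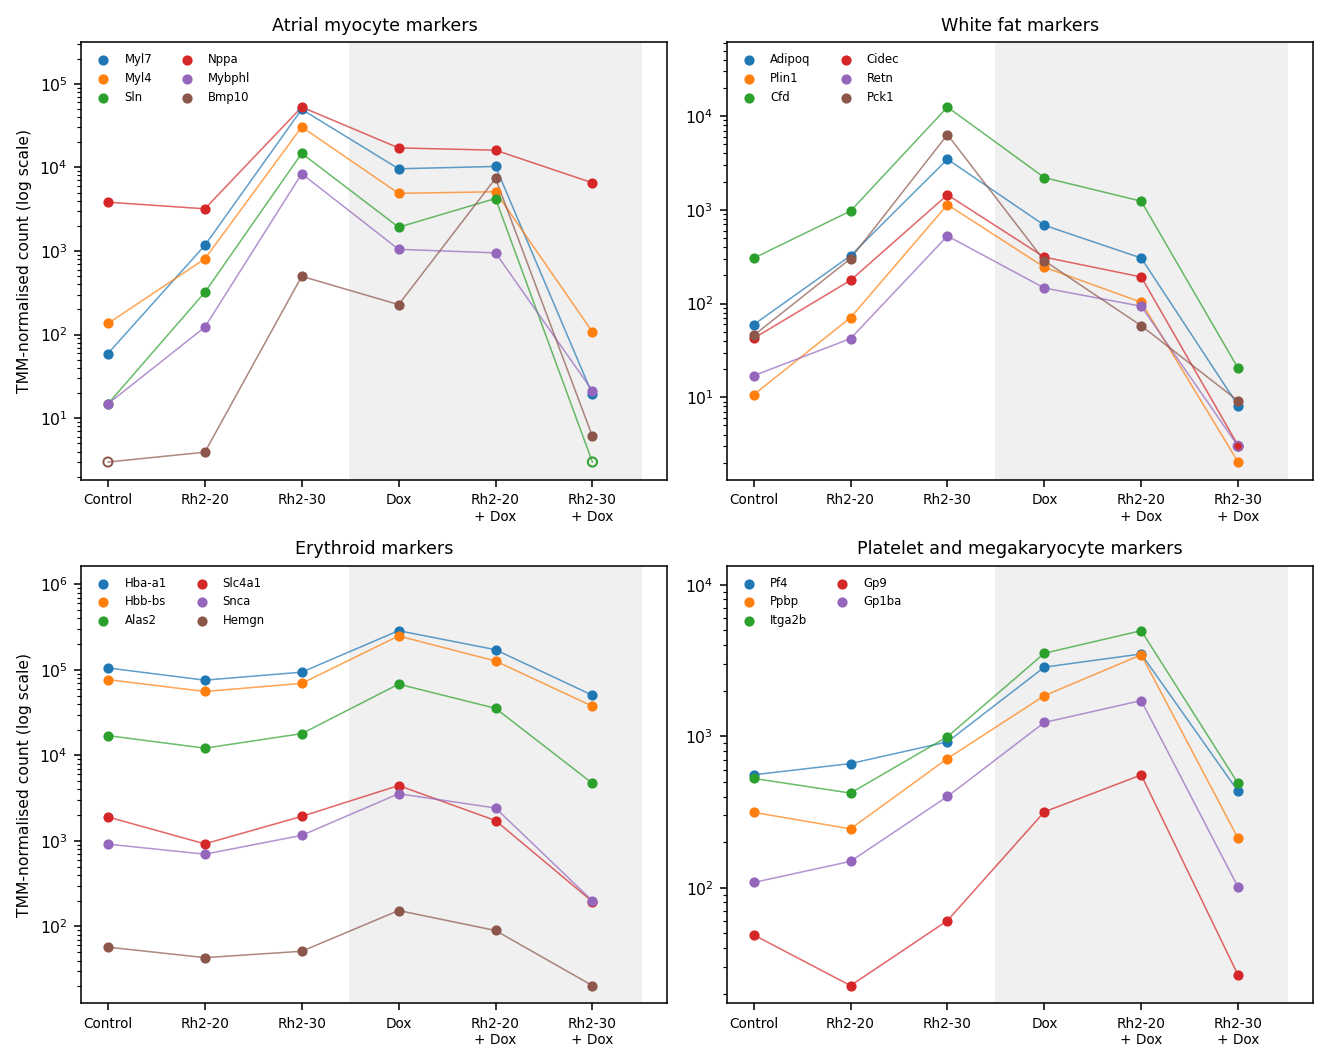
Normalised counts (log scale) of 6 atrial, 6 white fat, 6 erythroid and 5 platelet genes in the 6 libraries, with libraries that received Dox shaded and libraries at 0 drawn open at 3 counts. Atrial and fat genes peak in Rh2-30, except Bmp10, which peaks in Rh2-20 + Dox. Erythroid genes peak in Dox (Hbb-bs, 237261 counts before scaling) and platelet genes are highest in Rh2-20 + Dox and next highest in Dox.

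Genes of ventricular muscle were close to Control. Ventricular markers gave 0 of 8 past 2-fold, against 9.02% of all genes, with a median of 0.03. Among genes with a mean of 10000 or more counts, 0.809% were higher and 0.0578% lower. The alpha myosin heavy chain Myh6 had 1111142 counts in Control and 1146783 in Dox. Of 32 sarcomere genes only Myl4 and Myl7, the atrial pair above, passed 2-fold, against 9.02% of all genes. The beta myosin heavy chain Myh7, a gene of the stressed mouse ventricle, had 201564 counts in Control and 204073 in Dox. The skeletal actin Acta1 was lower (42807 and 27279 counts, -0.66), and so was Xirp2, which encodes a protein of the intercalated disc (119632 and 72692, -0.73), neither by 2-fold. The calcium pump Atp2a2 and the release channel Ryr2 had ratios of -0.04 and -0.00. Of 22 endothelial markers 1 was lower, Aplnr, the apelin receptor (5100 and 2031 counts, -1.34), against 3.58% of all genes. The 25 macrophage markers had a median of -0.02 with 1 higher, against 5.44% of all genes.

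**Figure D2:**
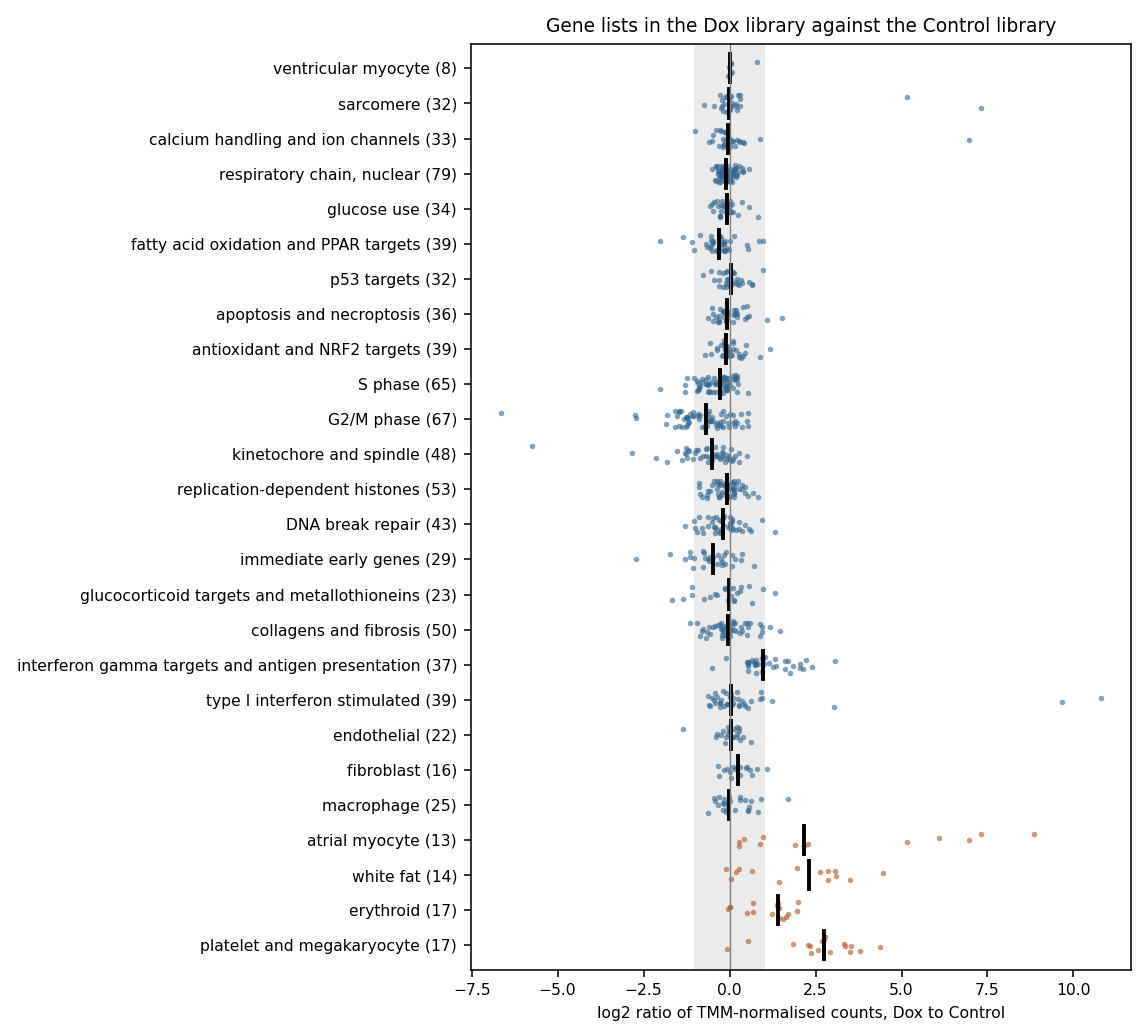
Log2 ratio of Dox to Control (horizontal axis) for each tested member of 26 gene lists, with the number of members in brackets, the median as a bar and the band within 2-fold shaded. Interferon gamma targets lie to the right (median 0.96), G2/M and kinetochore genes to the left (-0.69 and -0.51), and the medians of atrium, white fat, red cells and platelets (orange) furthest to the right.

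Targets of interferon gamma were higher in Dox as a group. Interferon gamma acts through transcription factors, IRF1 among them, that switch on GTPases that attack vacuoles holding parasites, the immunoproteasome and the class I presentation of peptides. Of the 37 genes listed, all tested, 16 were at least 2-fold higher and 0 lower, against 5.44% and 3.58% of all genes, and the median log2 ratio was 0.96. In 34 of the 37 the Dox level was above each of the 3 libraries without Dox, against 27.1% of all genes. The 4 genes below carry the largest ratios in the list. Their promoters, from RefSeq on GRCm38.p6, are shown with matches to GAAANNGAAA (an interferon-stimulated response element, ISRE) and TTCNNNGAA (a gamma-activated site, GAS) in capitals, on either strand. The motifs were chosen after the counts had been seen.
Igtp (chr11:58199306-58199605, + strand): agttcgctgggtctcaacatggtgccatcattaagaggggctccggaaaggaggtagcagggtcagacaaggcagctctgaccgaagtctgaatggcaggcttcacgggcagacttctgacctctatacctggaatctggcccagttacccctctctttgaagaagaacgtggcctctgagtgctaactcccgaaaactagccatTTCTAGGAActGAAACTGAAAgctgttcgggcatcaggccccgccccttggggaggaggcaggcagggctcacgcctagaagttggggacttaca
Tgtp1 (chr11:48992197-48992496, - strand): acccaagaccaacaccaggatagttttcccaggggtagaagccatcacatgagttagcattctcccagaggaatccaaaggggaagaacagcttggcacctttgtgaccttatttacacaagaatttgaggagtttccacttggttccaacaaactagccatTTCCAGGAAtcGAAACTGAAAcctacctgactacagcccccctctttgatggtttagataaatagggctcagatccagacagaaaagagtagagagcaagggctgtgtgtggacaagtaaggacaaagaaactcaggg
Tgtp2 (chr11:49064163-49064462, - strand): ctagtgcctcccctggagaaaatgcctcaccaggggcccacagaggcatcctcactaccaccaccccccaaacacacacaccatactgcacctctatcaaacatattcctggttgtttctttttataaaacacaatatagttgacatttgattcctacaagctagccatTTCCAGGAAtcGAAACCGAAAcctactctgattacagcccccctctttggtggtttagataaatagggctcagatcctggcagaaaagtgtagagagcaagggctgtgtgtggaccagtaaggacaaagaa
Irgm2 (chr11:58214727-58215026, + strand): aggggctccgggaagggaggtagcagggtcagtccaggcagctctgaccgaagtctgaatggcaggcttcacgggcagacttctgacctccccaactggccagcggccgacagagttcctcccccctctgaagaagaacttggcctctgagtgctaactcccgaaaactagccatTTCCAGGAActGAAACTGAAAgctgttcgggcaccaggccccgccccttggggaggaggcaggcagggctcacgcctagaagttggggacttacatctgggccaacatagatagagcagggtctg
In each of the 4 a GAS was followed, after 2 bases, by an ISRE. The GAS began 45 bases before the start in Igtp, 88 in Tgtp1, 81 in Tgtp2 and 75 in Irgm2. Of the 16 members that were 2-fold higher, 11 had a listed promoter, with 12 promoters between them. The ISRE letters were found in 7 of these 12 (58.3%) and in 5 of 20 promoters of the other members (25%). Over all 32851 promoters the share was 3.44%. The GAS letters were in 41.7% and 20%, against 8.3% of all promoters. Among the type I interferon targets described below, 16 of 32 promoters (50%) held the ISRE and 18.8% the GAS. The median log2 ratio of that list was 0.03, so a high ISRE share was not particular to the higher members.

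The immunity-related GTPases led the list. Igtp (Irgm3, a regulator of the family, chromosome 11, 58199556 to 58207592) had 1449 counts in Control, 1473 in Rh2-20, 1875 in Rh2-30, 12340 in Dox, 2246 in Rh2-20 + Dox and 1507 in Rh2-30 + Dox. Dox stood apart from the other 5 libraries, 8.44-fold above Control, a log2 ratio of 3.08 (3.00 to 3.16 by counting, and 2.40 to 3.76 once the dispersion is added). Tgtp1 and Tgtp2, near-identical effector GTPases whose reads may have been split, had 3476 and 4662 counts in Control and 18507 and 21854 in Dox. Summed, they gave a log2 ratio of 2.30, with 7335 to 8138 counts in the 3 libraries without Dox and 40361 in Dox. Irgm2 had 2064 counts in Control and 9217 in Dox (2.15), Iigp1, an effector on chromosome 18, 4577 and 19125 (2.05), and Irgm1 3413 and 8725 (1.34).

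The guanylate-binding proteins, a second family of such GTPases, had 4 of 9 members at least 2-fold higher, against 5.44% of all genes. Gbp4 had 31011 counts in Control, 21322 in Rh2-20, 19516 in Rh2-30, 106283 in Dox, 23278 in Rh2-20 + Dox and 18446 in Rh2-30 + Dox, with 3.40-fold more in Dox than in Control. Gbp6 (1.83), Gbp8 (1.62) and Gbp7 (1.32) were past 2-fold, and Gbp3 (0.99), Gbp2b (0.98), Gbp2 (0.96), Gbp5 (0.94) and Gbp9 (0.50) were not. The family sits in clusters of similar genes, so the split between members is uncertain.

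Some genes of class I presentation passed 2-fold and others did not. Nlrc5, which switches on class I genes, had 5180 counts in Control, 3528 in Rh2-20, 4541 in Rh2-30, 21614 in Dox, 4973 in Rh2-20 + Dox and 5962 in Rh2-30 + Dox, a log2 ratio of 2.05. The peptide transporter subunit Tap1 (1862 and 6111 counts) had 1.70 and the immunoproteasome subunit Psmb9 (379 and 1166) had 1.61, while their partners Tap2 and Psmb8 had 0.76 and 0.95. Of the class I chains, H2-Q7 had 1.27, H2-K1 1.03 and H2-D1 0.75, and their light chain B2m had 0.76. None of the class II genes named here passed 2-fold, with Ciita, their activator, at 0.75, H2-Aa at 0.83, H2-Ab1 at 0.52 and the invariant chain Cd74 at 0.64. Irf1 was at 0.58 and Irf8 at -0.53. Cd274 (PD-L1), which is in no list and was picked after its values were seen, rose from 822 to 3598 counts, a log2 ratio of 2.12, with 646 to 933 in the other 4 libraries.

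The Rh2 pairs did not show this group. None of the 16 genes past 2-fold was 2-fold higher in Rh2-20 + Dox than in Rh2-20, or in Rh2-30 + Dox than in Rh2-30, where the list's medians were 0.09 and -0.19 and where 4.09% and 2.4% of all genes were 2-fold higher. So the group was seen in the single Dox library and in neither of the other libraries with Dox. Ifng, the cytokine gene, had no counts in any library, and a library at 0 allows up to 3 counts. Of 9 NK cell markers tested 4 were higher in Dox, against 5.44% of all genes and 16.1% of genes with a mean of 10 to 99 counts. The 4 had low counts (Klrk1 8 and 43, Gzma 15 and 66, Il2rb 44 and 105, Nkg7 0 and 30). Gzmb and Eomes, below the filter, had 27 and 33 counts in Dox and 0 in Control. The summed level of the 16 listed NK markers was 465 in Dox and 216 to 305 without Dox. Of 15 T cell markers 3 were higher and 2 lower, against 5.44% and 3.58% of all genes. The higher were Cd3e (80 and 220 counts), Trbc1 (0 and 24) and Tigit, and the lower Ctla4 and Cd247. The summed level of the T cell markers was 1044 in Dox and 718 to 1251 without. The defining markers Cd8a and Cd3d were at 0 in Dox, and Prf1 had 10 counts in Dox and 13 in Control. The part of these cells in the interferon group was not tested.

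Of 39 genes best known as targets of type I interferon, 4 were at least 2-fold higher and 0 lower, against 5.44% and 3.58% of all genes, with a median of 0.03. In 19 of the 39 the Dox level was above each library without Dox and in 2 below, against 27.1% and 30.4% of all genes. Isg15 had 278 counts in Control and 279 in Dox, Ifit1 2187 and 2259, and Mx1 306 and 228. The 4 were Rsad2, an antiviral enzyme (2349 and 5605 counts, 1.24), and the 3 Oas1 genes, which sense double-stranded RNA. Oas1a (chromosome 5, 120896256 to 120907544) was listed at 0 in Control, Rh2-20 and Rh2-30 and had 850 counts in Dox, 732 in Rh2-20 + Dox and 447 in Rh2-30 + Dox. Oas1g followed it with 0, 0, 0, 382, 375 and 234, and Oas1b with 136, 126, 156, 1120, 763 and 533. Unlike the interferon gamma targets, the 3 were higher in each library with Dox than in any without, as were 7.85% of all genes. These neighbours are similar and reads may have been assigned to one or another, but their sum, 136 in Control and 2352 in Dox, had a log2 ratio of 4.09 (3.85 to 4.36 from counting error), with 3.86 and 3.08 in the Rh2 pairs. Their relatives on the same chromosome had other ratios, with Oas1c at 0.37, Oas3 at -0.29 and Oas2 at -0.63. The promoter of Oas1a holds overlapping ISRE matches close to the start and a GAS match further upstream, again in capitals.
Oas1a (chr5:120907476-120907775, - strand): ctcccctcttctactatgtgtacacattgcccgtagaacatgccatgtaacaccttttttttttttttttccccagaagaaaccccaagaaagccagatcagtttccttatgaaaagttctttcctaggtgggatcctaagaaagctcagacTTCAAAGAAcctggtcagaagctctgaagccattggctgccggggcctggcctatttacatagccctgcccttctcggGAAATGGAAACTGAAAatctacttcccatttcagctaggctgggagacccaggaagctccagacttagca

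**Figure D3:**
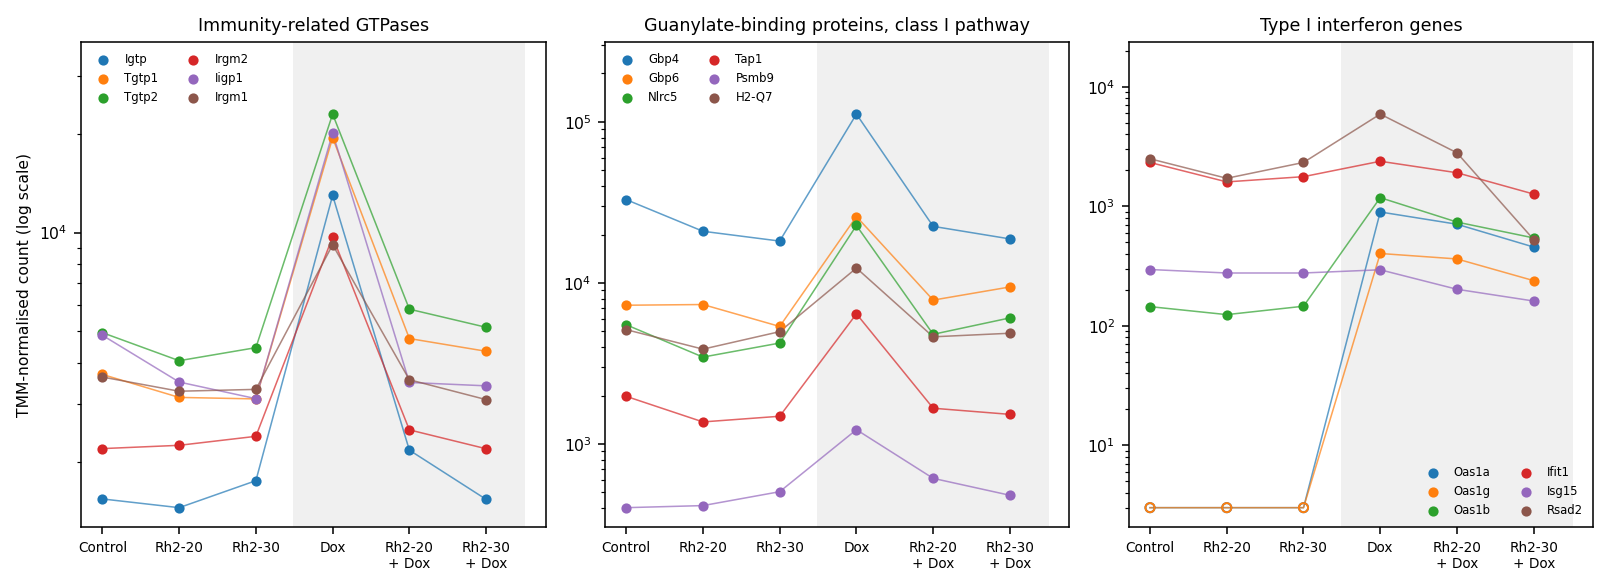
Normalised counts (log scale) of immunity-related GTPases, guanylate-binding proteins with class I genes, and type I interferon genes in the 6 libraries, with libraries that received Dox shaded and libraries at 0 drawn open at 3 counts. Igtp and its relatives are highest in the Dox library alone (Igtp, 1449 counts in Control and 12340 in Dox before scaling), while Oas1a, Oas1g and Oas1b are high in all 3 libraries with Dox and Isg15 and Ifit1 are nearly level between Control and Dox.

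Cell division genes were lower in Dox. The adult mouse heart holds few dividing cells, most of them not cardiomyocytes, and their transcripts are scarce. Of 67 genes of G2 and mitosis, all tested, 26 were at least 2-fold lower and 0 higher (3.58% and 5.44% of all genes), with a median of -0.69. In 54 of the 67 the Dox level was below each library without Dox, against 30.4% of all genes. Of 48 kinetochore and spindle genes, some shared with the first list, 14 were lower and 0 higher (median -0.51), and 37 were below each library without Dox. Such genes are often held by a shared promoter layout, CCAAT boxes with a cell cycle homology region (CHR, TTTGAA or TTCGAA). Matches to either motif are capitalised here, on either strand, in members with large falls.
Nek2 (chr1:191821223-191821522, + strand): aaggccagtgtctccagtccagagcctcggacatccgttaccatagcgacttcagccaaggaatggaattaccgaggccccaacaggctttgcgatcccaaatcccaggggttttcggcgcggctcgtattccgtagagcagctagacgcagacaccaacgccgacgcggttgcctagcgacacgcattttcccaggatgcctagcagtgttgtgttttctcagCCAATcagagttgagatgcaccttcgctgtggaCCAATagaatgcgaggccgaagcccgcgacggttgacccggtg
Troap (chr15:99074723-99075022, + strand): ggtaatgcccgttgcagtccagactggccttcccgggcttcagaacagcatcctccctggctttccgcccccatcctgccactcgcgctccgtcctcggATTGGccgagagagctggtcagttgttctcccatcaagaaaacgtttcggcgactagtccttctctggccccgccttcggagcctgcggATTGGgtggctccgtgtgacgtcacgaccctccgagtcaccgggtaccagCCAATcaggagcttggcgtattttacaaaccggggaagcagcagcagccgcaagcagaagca
Ttk (chr9:83834439-83834738, + strand): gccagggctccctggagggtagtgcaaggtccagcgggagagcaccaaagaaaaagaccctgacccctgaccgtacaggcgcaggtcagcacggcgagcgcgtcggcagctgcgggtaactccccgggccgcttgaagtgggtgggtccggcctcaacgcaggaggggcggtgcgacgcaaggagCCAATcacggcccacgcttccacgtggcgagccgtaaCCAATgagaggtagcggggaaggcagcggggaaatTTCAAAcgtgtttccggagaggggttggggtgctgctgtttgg
Nek2 held 2 CCAAT boxes, the first beginning 26 bases before the start, and Troap 3, both without a CHR match. Ttk held 2 with a CHR just past the start. CCAAT was found in 75.8% of the 62 promoters of the G2/M list and 71.4% of the 49 of the kinetochore list, against 37.4% of all promoters. The CHR letters were in 74.2% and 53.1%, against 19.2%. Within the G2/M list, the promoters of genes 2-fold lower in Dox held CCAAT in 81.8% and the CHR in 72.7%, and the others in 72.5% and 75%.

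The genes that were lower included kinases, motors and centromere proteins of mitosis. Nek2, a centrosome kinase (chromosome 1, 191821449 to 191833049), had 136 counts in Control, 155 in Rh2-20, 151 in Rh2-30, 20 in Dox, 15 in Rh2-20 + Dox and 14 in Rh2-30 + Dox. The 3 libraries with Dox and the 3 without did not overlap, as for 9.16% of genes with Dox below, and Dox was 6.86-fold below Control (-2.75, from -3.71 to -1.79 with the dispersion). Kif2c, a microtubule-depolymerising kinesin, had 113, 178, 221, 17, 35 and 0 counts in the same order, and Ttk, a kinase of the spindle checkpoint, 209, 263, 358, 59, 56 and 18. Cdc25c, the phosphatase that activates CDK1, was listed at 0 in all 3 libraries with Dox and had 47 counts in Control, so it was at least 15.8-fold lower in Dox. Kntc1, which recruits dynein to the kinetochore, had 843 counts in Control and 193 in Dox (-2.14), and Cenpm 25 and 0. The centromere protein Cenpw had 67 counts in Control and 9 in Dox (-2.84), but -0.03 and -0.44 in the Rh2 pairs. The cyclin-dependent kinase Cdk1 itself had 155 and 52 (-1.58), cyclin B1 (Ccnb1) 140 and 58 (-1.28), and the proliferation marker Mki67 8783 and 3822 (-1.21). The ratio of Mki67 was smaller than in the Rh2 pairs, where it went from 10708 to 2664 and from 13001 to 677 counts.

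This group, in contrast to the interferon targets, recurred in the Rh2 pairs. Of the 26 G2/M genes, 24 were 2-fold lower in Rh2-20 + Dox than in Rh2-20 and 25 in Rh2-30 + Dox than in Rh2-30, where 2.87% and 12.1% of all genes were. The medians of the whole list were -1.07 and -1.89. Ect2 and Plk1 were the 2 that did not reach 2-fold in the first of these pairs (-0.80 and -0.95), and Plk1 missed it in the second (-0.96).

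**Figure D4:**
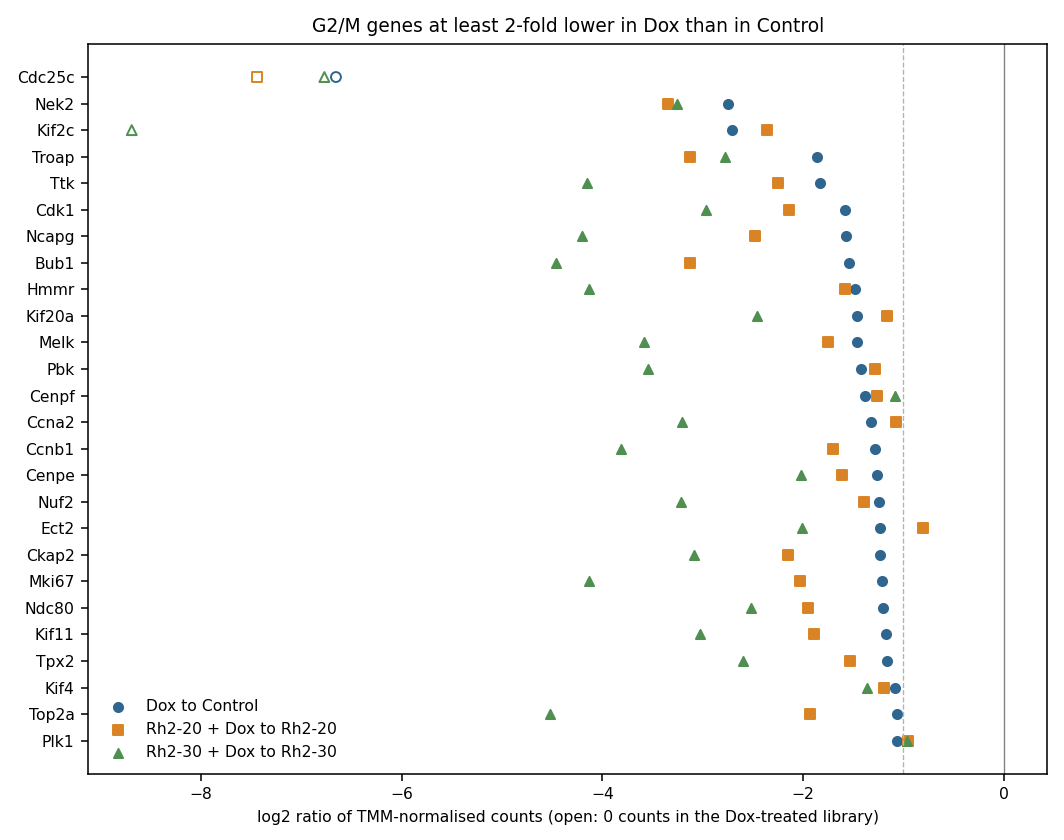
Log2 ratios (horizontal axis) of the 26 G2/M genes at least 2-fold lower in Dox than in Control, in the 3 pairs of libraries that differ by Dox, with open symbols where the Dox-treated library had 0 counts. The genes were picked on the circles. The squares and triangles, from other libraries, all lie below 0, and 24 genes pass 2-fold (dashed line) in all 3 pairs.

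Replication genes followed less far. Of 65 S phase genes 5 were lower and 0 higher (median -0.28), against 3.58% and 5.44% of all genes. Among the 5 were Dtl (252 and 103 counts), Exo1 (91 and 37) and E2f1 (195 and 96). Pcna had 4106 counts in Control and 3852 in Dox. No replication-dependent histone of 53 passed 2-fold (median -0.09), against 9.02% of all genes, although their median was -0.69 and -1.51 in the Rh2 pairs. Of 43 genes of DNA break repair 3 were lower and 1 higher, against 3.58% and 5.44% of all genes. The lower were Brca1 (478 and 196 counts, -1.30), Eme1 and Fanci, and the higher was Fancf (41 and 105). Neil3, a glycosylase outside these lists, had 336 counts in Control and 77 in Dox.

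Of 9 topoisomerase and adduct repair genes 1 was lower, Top2a, and 0 higher, against 3.58% and 5.44% of all genes. Top2a had 1646 counts in Control, 2238 in Rh2-20, 2942 in Rh2-30, 794 in Dox, 596 in Rh2-20 + Dox and 117 in Rh2-30 + Dox, so its log2 ratio of -1.06 sat with the dividing-cell genes. Top2b had 28805 counts in Control and 22513 in Dox (-0.37, with the dispersion -1.04 to 0.31). The mitochondrial topoisomerase Top1mt, and Tdp1, Tdp2 and Sprtn, which clear protein from DNA, were between -0.06 and 0.03. Of 32 p53 targets 0 passed 2-fold in either direction, against 9.02% of all genes, with a median of 0.04. Cdkn1a (p21), the target best known for holding the cell cycle, had 230 counts in Control, 431 in Rh2-20, 559 in Rh2-30, 368 in Dox, 681 in Rh2-20 + Dox and 753 in Rh2-30 + Dox. The Dox level was above Control (0.66, from -0.05 to 1.38 with the dispersion) and below both Rh2 libraries without Dox. Mdm2 had -0.18, Ccng1 -0.30 and Bax 0.21. Cdkn2a (p16) was lower (19 and 11 counts), within its counting error (-2.02 to 0.34).

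Apoptosis genes had 2 of 36 higher, near the 5.44% of all genes, and 0 lower, with a median of -0.08. The 2 were Bid (26 and 77 counts) and Bnip3l (11273 and 23939), which also clears mitochondria from red cells. Of the genes that move or reduce doxorubicin, 0 of 21 passed 2-fold by the criterion, against 9.02% of all genes. Xanthine dehydrogenase (Xdh) came to its edge with 46680 counts in Control and 94097 in Dox. The antioxidant and NRF2 list had 1 of 39 past 2-fold, Gsta2 (9 and 21 counts), against 9.02% of all genes. Hmox1 and Nqo1 had -0.22 and -0.19. Of 28 iron genes 5 were higher, against 5.44% of all genes, namely Alas2, Slc25a37, Fech, Slc39a8 and Hamp. The first 3 make haem in red cell precursors and moved with the globins above (Slc25a37 3516 and 10847 counts), and hepcidin (Hamp, 13 and 88) had 1388 counts in Rh2-30, like the atrial genes. Tfrc, the transferrin receptor, was lower (14954 and 9413 counts, -0.68).

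Immediate early genes are those that cells switch on within minutes of a stimulus. Of 29 tested, 7 were lower and 0 higher, against 3.58% and 5.44% of all genes, with a median of -0.48, and 18 were below each library without Dox, against 30.4%. The orphan receptor Nr4a3 had 2232 counts in Control, 1111 in Rh2-20, 1416 in Rh2-30, 344 in Dox, 396 in Rh2-20 + Dox and 276 in Rh2-30 + Dox. Its level was lower in each library with Dox than in any without, as for 9.16% of all genes. The log2 ratio of Nr4a3 against Control was -2.71 (-3.40 to -2.01 with the dispersion). Nr4a1 (6473 and 1948 counts, -1.74), Fos (1277 and 520, -1.31) and Egr1 (2417 and 1093, -1.16) followed, and Fosl2, Egr2 and Egr3 were also past 2-fold. In the Rh2-20 pair only Nr4a3 of the 29 was 2-fold lower (-1.51), near the 2.87% of all genes. Nr4a1 was at -0.50 there, Egr1 at -0.32, Fos at -0.25 and Egr3 at -0.01. In the Rh2-30 pair 9 of the 29 were 2-fold lower, against 12.1% of all genes, and Nr4a1 was at -0.41.

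Of 23 glucocorticoid targets and metallothioneins 1 was higher and 4 lower (5.44% and 3.58% of all genes), with a median of -0.02. Pdk4 and Angptl4, described with the fuel genes, were 2 of the 4. Fkbp5, a chaperone of the receptor, was higher (1730 and 4333 counts, 1.31), with 0.89 and 1.12 in the Rh2 pairs, although Rh2-30 without Dox had 4889 counts. The metallothioneins Mt2 and Mt1, which bind zinc and copper, were lower. Mt2 had 1333 counts in Control, 1955 in Rh2-20, 1609 in Rh2-30, 421 in Dox, 1048 in Rh2-20 + Dox and 772 in Rh2-30 + Dox. Each library with Dox was under each without, as for 9.16% of all genes. Mt1 had 8955 counts in Control and 4220 in Dox (-1.10) but did not separate the libraries in the same way, with 9917 in Rh2-30 + Dox.

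Fuel genes differed in a few members. Of 39 genes of fatty acid oxidation and PPAR, the nuclear receptors that fatty acids bind, 4 were lower and 0 higher. The shares over all genes were 3.58% and 5.44%, and the median of the list was -0.29. Ucp3, a mitochondrial carrier, had 3861 counts in Control, 3191 in Rh2-20, 4203 in Rh2-30, 966 in Dox, 945 in Rh2-20 + Dox and 1693 in Rh2-30 + Dox. All 3 libraries with Dox were below all 3 without, as for 9.16% of all genes. Ucp3 had a ratio to Control of -2.01 (-2.69 to -1.33 with the dispersion). Pdk4, the kinase that shuts pyruvate out of the mitochondrion, had 25379, 29573, 36110, 10090, 12940 and 18419 counts in the same order, again without overlap. Angptl4 (449 and 211 counts) and Cidea (627 and 308) were also lower. Cidea is one of the brown fat markers too and had 1900 counts in Rh2-30. Cpt1a had -0.85, and the muscle isoform Cpt1b 0.14. The coactivator Ppargc1a was above each library without Dox (20757 and 37700 counts, 0.85). The 79 nuclear genes of the respiratory chain and the 34 of glucose use had 0 past 2-fold, against 9.02% of all genes. Their medians were -0.10 and -0.09.

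Matrix genes showed no common direction. Of 50 collagen and fibrosis genes 2 were higher and 1 lower (5.44% and 3.58% of all genes), with a median of -0.06. The basement membrane collagens Col4a1 and Col4a2 had 38366 and 39154 counts in Control and 22689 and 20380 in Dox (-0.77 and -0.95), and the fibrillar Col3a1 36000 and 22452 (-0.69). Tagln, a contractile protein of smooth muscle and myofibroblasts, was higher (1834 and 5083 counts, 1.46), as was Cnn1 (235 and 589, 1.31), while Acta2, their common partner, had 21968 and 20398. Neither Tagln nor Cnn1 was 2-fold higher in a Rh2 pair (0.12 and -0.50 for Tagln, 0.05 and -1.87 for Cnn1). Cnn1 was past 2-fold lower in the Rh2-30 pair. Of 26 chemokines tested 7 were higher and 2 lower, against 5.44% and 3.58% of all genes. Of the 7, 2 (Pf4 and Ppbp) are the platelet genes counted above. The other 5 had at most 82 counts in Dox, and Cxcl1 (446 and 162 counts) and Ccl7 (142 and 71) were the 2 lower.

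**Figure D5:**
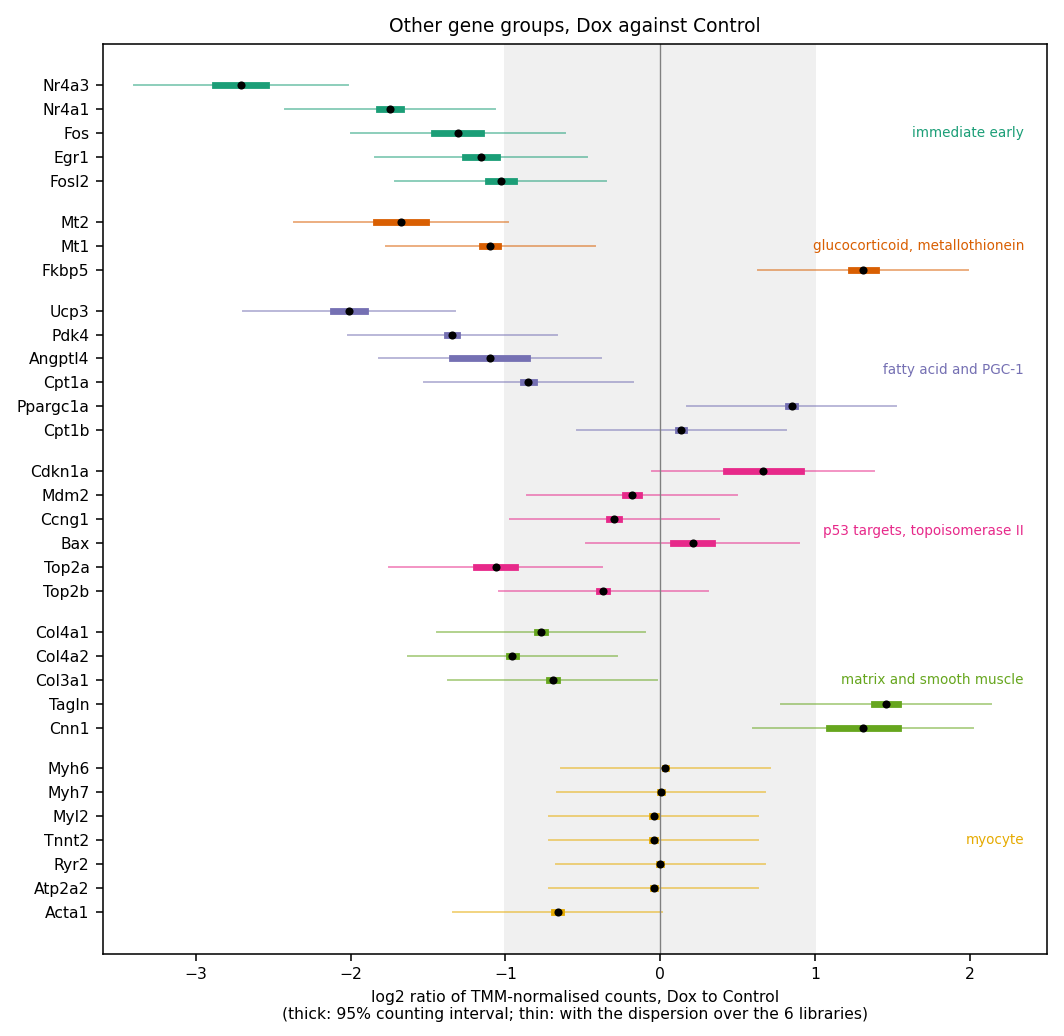
Log2 ratio of Dox to Control (horizontal axis) for genes of 6 groups, with the 95% counting interval as a thick line, the interval with the dispersion as a thin line and the band within 2-fold shaded. Nr4a3 (-2.71), Ucp3 (-2.01) and Nr4a1 (-1.74) lie furthest to the left, and the p53 targets and the myocyte genes from Myh6 to Atp2a2 lie inside the band.

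Few genes passed 2-fold in the same direction in all 3 pairs that differ by Dox, 34 higher (0.186% of those tested) and 91 lower (0.497%). Of the 997 genes higher in Dox than Control, 304 (30.5%) were 2-fold higher in the Rh2-20 pair and 55 (5.5%) lower. In the Rh2-30 pair 112 (11.2%) were higher and 419 (42.0%) lower. Of the 656 lower, 161 (24.5%) were lower and 63 (9.6%) higher in the Rh2-20 pair. In the Rh2-30 pair 267 (40.7%) were lower and 35 (5.3%) higher. Over all genes, 4.09% were higher and 2.87% lower in the Rh2-20 pair, and 2.4% and 12.1% in the Rh2-30 pair. Leaving out both Rh2-30 libraries, 289 genes were higher and 145 lower in the 2 remaining pairs. Beside the Oas1 genes, those of the 34 that the naming rule picked included the aminopeptidase Lvrn (372 counts in Control and 1710 in Dox, 2.19), Cyp26b1, which breaks down retinoic acid (151 and 641, 2.07), Slc12a3 (35 and 129, 1.86) and Igfbp3, a carrier of insulin-like growth factors (490 and 1299, 1.39). Igfbp3 had 490 to 916 counts in the libraries without Dox and 1299 to 1764 in those with it. Over all genes, 7.85% were higher in each library with Dox than in any without. Of the 91 falls, the rule picked 10, of which Nek2, Kif2c, Kntc1, Troap, Ttk, Cdk1, Ncapg and Cep55 act in cell division, and the others were Neil3 and Lrrc55, an accessory subunit of a potassium channel (126 and 19 counts, -2.71).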

How the data were processed

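Hearts of 5 mice were pooled for each library, and 1 library per group was sequenced after RNA capture (SureSelect XT RNA Direct, HiSeq2500). Per the labels and the study's methods, reads were trimmed with Trimmomatic, aligned to mm10 with HISAT2 2.1.0 and assembled and quantified with StringTie 2.1.3b on UCSC annotation. The authors deposited, per gene and library, whole-number read counts without normalization, FPKM (scaled by gene length and library size) and TPM (scaled to a common total). The FPKM and TPM served only as alternatives. Read counts for near-identical genes rest on the authors' assignment.

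TMM factors and the dispersion came from edgeR 4.0.16 in R 4.3.3, over the 18328 genes whose mean count reached 10, and DESeq2 1.42.0 gave alternative size factors. Log2 ratios, intervals and figures were made in Python 3.11.15 with scipy 1.17.1 and matplotlib 3.10.9. Intervals and the limit of 3 counts that a 0 allows cover counting error only. The step was tested on simulated counts with 200 changed genes. Gene positions (RefSeq, GRCm38.p6) were matched by gene ID for 18301 genes.

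There are 51 lists, 29 of pathways and 22 of cell type markers. The members and lists were chosen with earlier results of these data known. Genes named are list landmarks, up to 4 per list with the largest ratio, and 10 per direction by ratio, or by the smallest ratio over the 3 pairs, among named genes with at least 100 counts. Others were picked once their values had been seen. A few listed genes are not reported here. Alternatives were other size factors, a prior count of 2, other filters, FPKM plus 1 or 0.1, TPM plus 1 and, chosen after seeing the data, leaving out both Rh2-30 libraries or the atrial, fat and blood markers. The methods name the mice both as nude and as wild-type BALB/c, and the labels' strain is used here.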

Additional observations from a re-analysis of the deposited data

Results flagged for a closer look

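Of the marker lists, 5 had a median at least 2-fold higher in Dox than in Control and at least 2-fold lower in Rh2-30 + Dox than in Rh2-30, and the difference between the pairs was not tested. The median log2 ratios in the latter pair were -3.01 for atrial myocytes, -5.41 for white fat, -1.93 for red cells, -1.25 for platelets and -1.51 for liver. The liver list had 4 of 7 tested genes higher in Dox, against 5.44% of all genes. They were led by Apoh (0 and 37 counts) and Cyp2e1 (242 and 4191), which fat also makes. Albumin (Alb) had 0 counts in Dox and 25 in Control.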

How the results depend on the processing

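The counts of genes past 2-fold (997 higher and 656 lower) moved by more than 1.5 times with no filter on low counts (2851 and 2321), a mean of at least 100 counts (295 and 171), FPKM plus 1 (160 and 36), FPKM plus 0.1 (533 and 267) and TPM plus 1 (291 and 112). The genes past 2-fold in all 3 pairs (34 higher and 91 lower) became 106 and 212, 8 and 48, 1 and 2, 6 and 41, and 6 and 14 under the same settings, and 289 and 145 in the 2 pairs without Rh2-30. A stated amount added to FPKM or TPM shrinks the ratios of genes with low values. Without the atrial, fat and blood markers 953 genes were higher and 655 lower. Of the list medians, FPKM plus 1 moved S phase to -0.15, G2/M to -0.27, kinetochore to -0.17 and platelet to 1.43. TPM plus 1 moved platelet to 2.31. A mean of at least 100 counts left fewer T cell markers, with a median of 5.27. That median fell between Cd3e (1.44) and Tigit (9.09), which was listed at 0 in Control. Of 144 named genes past 2-fold, the direction was the same under each alternative run on them, and 57 (FPKM plus 1) to 144 (DESeq2 size factors) still passed 2-fold. No list median past 2-fold changed direction. No paired analysis was possible because Dox and Control have 1 library each and their comparison comes from no test. A fit of Dox over the 3 pairs of libraries, blocked by Rh2 dose, would address another comparison and was not run. With 1 library on each side, none could be left out.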

Other observations

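Several single genes stood apart for 1 or a few pools. Madd had 16795 counts in Control and 3950 to 4635 in the other 5 libraries, so its log2 ratio of -1.91 in Dox rests on the Control library. Tigit, listed at 0 in Control, had 258 counts in Dox and 456 and 533 in the Rh2 libraries without Dox. The zinc finger genes Zfp979, Zfp980 and Zfp600, similar neighbours on chromosome 4, had 847, 110 and 111 counts in Dox and 1010, 120 and 131 in Rh2-30 + Dox, and at most 18 in each of the other 4 libraries. Moap1 was listed at 0 in Control and in Rh2-30 + Dox, with 106 counts in Dox and 241 to 595 in the others. These genes were named by the size of their ratio, Madd after its values were seen. Of the circadian genes, Per1 and Per2 had ratios of -0.43 and 0.84, while Arntl, the core activator, had -0.10. The heat shock list had 1 of 34 higher, against 5.44% of all genes. It was Hsph1 (4325 and 9818 counts), which had 13555 counts in Rh2-30 without Dox.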
